A study of Mus musculus with 8 samples.

Results

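The 41 genes described here encode the chaperones and disulfide-forming enzymes that fold secretory proteins in the lumen of the endoplasmic reticulum (ER). They were taken by symbol from a list of ER folding genes, and all 41 had a row among the 24537 genes of the count table. The list fell into 6 classes by role, which were HSP70 and HSP90 chaperones with their co-chaperones (11 genes), lectin chaperones and their glucosyltransferases (4), protein disulfide isomerases (14), thiol oxidases with a peroxiredoxin (4), prolyl isomerases (5), and CRELD and canopy proteins (3). Expression was measured by RNA-seq of polyadenylated RNA from isolated pancreatic islets of male mice aged 12 weeks, without treatment. Islets of 4 wild-type (WT) replicates were compared with islets of 4 replicates that lack Wfs1 (Wfs1KO), the gene of the ER membrane protein wolframin, whose loss causes Wolfram syndrome in humans. The strain, the construction of the knockout allele and the number of mice behind each library are not given in the sources used here, so p-values measure the spread between these 8 libraries.

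A protein that enters the ER meets the HSP70 chaperone BiP (Hspa5), which holds exposed hydrophobic stretches and is driven by J-domain co-chaperones and nucleotide exchange factors. Glycoproteins pass through a cycle of the lectins calnexin and calreticulin, and disulfide isomerases form and rearrange cysteine bridges with oxidising power supplied by the ERO1 oxidases. Proinsulin, the main client of this machinery in beta cells, needs correctly paired disulfide bonds before it leaves the ER. When unfolded proteins accumulate, the transcription factors ATF6 and XBP1 act on many of these genes through promoter elements of the unfolded protein response.

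The libraries held between 15810830 and 27057617 exon counts, of which the 41 genes took between 176916 and 427318. Wfs1 itself fell from 182, 156, 190 and 188 TMM-scaled CPM (counts scaled to a common library size) in WT to 101.1, 105, 125 and 98.9 CPM in Wfs1KO (log2 fold change -0.74, SE 0.08, edgeR adjusted p = 5.06e-05). Its counts span the whole gene, so a deleted exon could not be read separately. Beta cell markers were abundant in all 8 libraries, with a summed level of 163206 to 209021 CPM in WT and 110443 to 135696 CPM in Wfs1KO, and 8 of 10 fell while 1 rose (median log2 fold change -0.65). All 11 endothelial markers rose (median 0.51, summed level 657 to 737 CPM in WT and 882 to 1040 CPM in Wfs1KO). Of 11 stellate cell and pericyte markers 3 rose and 1 fell (summed level 199 to 291 CPM in WT, 328 to 391 CPM in Wfs1KO). None of the 18 tested acinar markers was called by edgeR or DESeq2, or had an unadjusted p under 0.05. All 18 had a negative log2 fold change (median -0.41, range -0.55 to -0.08). Their summed level spread widely, from 37930 to 85004 CPM in WT and from 11787 to 81005 CPM in Wfs1KO. B and plasma cell markers, which mark another cell rich in ER chaperones, summed to 28.4 to 104 CPM in WT and 18.4 to 89.1 CPM in Wfs1KO. No marker in these 5 lists was at 0 in all libraries. In bulk islets fewer cells of a type and less RNA per cell cannot be told apart. With the summed acinar markers as a covariate, 27 of the 41 genes rose and 1 fell. The part of the other marker shifts in the results on the folding genes was not tested.

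Most of the ER folding genes were higher in Wfs1KO islets, with one sharp exception among the oxidases. At an edgeR adjusted p under 0.05, 26 of the 41 genes rose, 1 fell and 14 were not called. Over all 15733 tested genes the share called was 18.9%, with 10.4% on the higher and 8.49% on the lower side. The median log2 fold change was 0.39 over the 41 genes and 0.01 over all tested genes. In 26 genes every Wfs1KO library lay above every WT library, and in 1 gene every Wfs1KO library lay below, against 12.3% and 10.3% of tested genes. The share of exon counts that fell on the 41 genes was 1.12% ± 0.0231 in the 4 WT libraries and 1.56% ± 0.0740 (SD) in the 4 Wfs1KO libraries. Their summed level was 11814, 10781, 11948 and 11920 CPM in WT and 14962, 14627, 15589 and 14952 CPM in Wfs1KO, so that no WT library reached the lowest Wfs1KO library. Scaling by total counts alone, which shifted the median of all tested genes by 0.10 on the log2 scale, gave 32 rising genes and 1 falling gene. Of all called genes it placed 81.7% on the higher side, where TMM scaling placed 55.1%. In the authors' deposited table of differential expression, 27 of the 41 genes had an adjusted p under 0.05 with a higher level in Wfs1KO and 1 with a lower level.

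**Figure D1:**
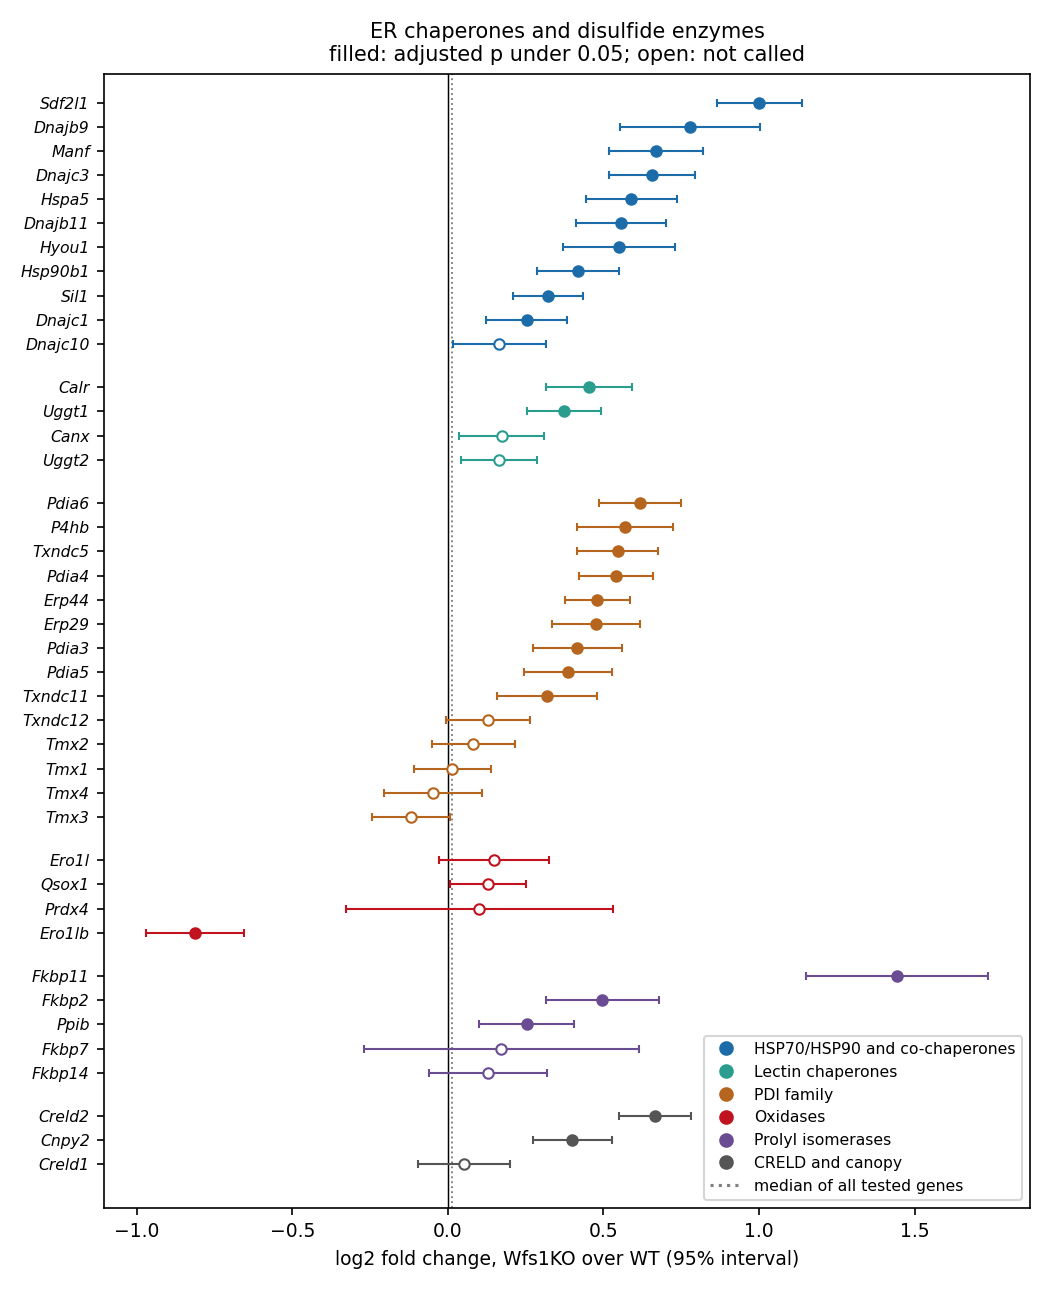
Log2 fold change of each of the 41 genes, Wfs1KO over WT (x axis), with its 95% interval, grouped and coloured by class. Filled points have an adjusted p under 0.05; 26 lie to the right of 0, Ero1lb alone lies to the left, and the dotted line marks the median of all tested genes at 0.01.

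The promoters of these genes are shown because several carry the ER stress response element (ERSE), the element through which ATF6 and XBP1 are known to act together with the factor NF-Y. Of the 41 genes, 36 had a promoter in the RefSeq table of GRCm38.p6, which spans 250 bases before to 50 bases after the annotated start; Hyou1, Sil1, Manf, Erp29 and Tmx3 had none there. The element was searched on both strands as CCAAT, then 9 bases of any kind, then CCACG, so each match also contains the shorter CCACG core. It was present in 8 of the 45 promoter entries of these genes (17.8%), in 22 of 15139 entries of tested genes (0.145%) and in 39 of all 32851 entries (0.119%). The 8 entries are also counted in both larger sets. Many of these genes were already known to be regulated through such elements, so their higher share is not an independent result. The 8 genes were Hspa5, Hsp90b1, Dnajc3, Calr, Canx, Pdia6, Creld2 and Ero1lb, and Hsp90b1 carried 2 copies. Capitals mark the element, which reads CGTGG to ATTGG where it lies on the reverse strand. Each sequence is given 5′ to 3′ on the strand of its gene. The Hspa5 stretch lies at chr2:34772010-34772058 on the plus strand, from 80 to 32 bases before the start.
Hspa5: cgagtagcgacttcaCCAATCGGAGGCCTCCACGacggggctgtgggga
The Hsp90b1 stretch, with both copies, lies at chr10:86705518-86705671 on the minus strand, from 227 to 74 bases before the start.
Hsp90b1: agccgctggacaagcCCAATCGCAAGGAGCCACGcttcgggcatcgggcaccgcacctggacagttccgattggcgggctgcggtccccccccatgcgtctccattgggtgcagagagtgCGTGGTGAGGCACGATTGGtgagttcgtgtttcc
The Dnajc3 stretch lies at chr14:118937812-118937860 on the plus strand, from 120 to 72 bases before the start.
Dnajc3: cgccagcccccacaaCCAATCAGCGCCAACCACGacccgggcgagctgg
The Calr stretch lies at chr8:84847060-84847108 on the minus strand, from 177 to 129 bases before the start.
Calr: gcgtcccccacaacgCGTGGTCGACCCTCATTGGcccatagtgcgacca
The Canx stretch lies at chr11:50325785-50325833 on the minus strand, from 160 to 112 bases before the start.
Canx: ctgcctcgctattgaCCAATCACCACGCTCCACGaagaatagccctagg
The Pdia6 stretch lies at chr12:17266476-17266524 on the plus strand, from 113 to 65 bases before the start.
Pdia6: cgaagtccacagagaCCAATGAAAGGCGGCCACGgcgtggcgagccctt
The Creld2 stretch lies at chr15:88819505-88819553 on the plus strand, from 141 to 93 bases before the start.
Creld2: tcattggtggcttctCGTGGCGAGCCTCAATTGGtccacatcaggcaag
The Ero1lb stretch lies at chr13:12565667-12565715 on the plus strand, from 216 to 168 bases before the start.
Ero1lb: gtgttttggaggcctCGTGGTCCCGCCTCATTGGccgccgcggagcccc

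Of the 8 genes with the element 6 rose, 1 fell (Ero1lb) and 1 was not called (Canx), with a median log2 fold change of 0.52 (range -0.81 to 0.67). Of the 28 genes whose promoter entries held no match, 16 rose, 0 fell and 12 were not called, with a median of 0.29 (range -0.05 to 1.44). Whether the genes with and without the element differ was not tested. Sdf2l1 and Fkbp11, which had the highest fold changes of the 41 genes, were among those without a match in this window. The Fkbp11 entry that held the shorter core CCACG spans chr15:98727578-98727877 on the minus strand. It does not reach the start of the counted Fkbp11 transcript at 98728198. The shorter core CCACG was far commoner, in 32.8% of all promoter entries, 44.9% of those of tested genes and 66.7% of those of the 41 genes. Of the 28 genes with the core 20 rose, 1 fell and 7 were not called, and of the 8 genes without it 2 rose and 6 were not called. The related element ERSE-II (ATTGG, 1 base of any kind, CCACG) was found in Dnajb11 only, which rose. It was in 2.22% of the entries of the 41 genes, 0.0594% of those of tested genes and 0.0365% of all entries. The XBP1 site TGACGTGG was found in Txndc5 and Txndc11, both of which rose. This site was in 4.44% of the entries of the 41 genes, 0.852% of those of tested genes and 0.676% of all entries. The amino acid response motif TGATGNAAN was found in Txndc5 and Cnpy2, both of which rose. It was in 4.44% of the entries of the 41 genes (2 of 45), 2.38% of those of tested genes and 3.95% of all entries. These counts describe letters in a window and do not show binding.

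Of the HSP70 and HSP90 class, 10 of 11 genes rose and 0 fell, with a median log2 fold change of 0.56. Hspa5, which encodes BiP and lies on chromosome 2 (34772090 to 34776529, plus strand, GRCm38), was the most abundant of the 41 genes per transcript length. Its level was 1385, 1259, 1428 and 1345 CPM in WT and 2027, 2026, 2153 and 1947 CPM in Wfs1KO. The groups were well apart, and Hspa5 rose 1.5-fold (log2 fold change 0.59, SE 0.07, adjusted p = 5.40e-05). Hsp90b1, the ER member of the HSP90 family known as GRP94, stood at 1247, 1190, 1264 and 1280 CPM in WT and 1627, 1679, 1669 and 1676 CPM in Wfs1KO. It rose by less than Hspa5, 1.34-fold (log2 fold change 0.42, SE 0.06, adjusted p = 3.42e-04).

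Sdf2l1, a partner of BiP and its J-domain proteins that keeps clients from aggregating, had the highest fold change of this class. Its level was 58.2, 53.9, 64.2 and 61.2 CPM in WT and 119, 120, 125 and 110 CPM in Wfs1KO. The lowest Wfs1KO library was thus far above the highest WT library, and Sdf2l1 rose 2.0-fold (log2 fold change 1.0, SE 0.06, adjusted p = 3.16e-07). Manf, a small secreted cofactor of BiP with protective effects on beta cells, stood at 222, 197, 217 and 219 CPM in WT and 353, 324, 377 and 306 CPM in Wfs1KO, and rose 1.59-fold (log2 fold change 0.67, SE 0.07, adjusted p = 2.75e-05).

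The J-domain proteins, which deliver clients to BiP and start its ATP hydrolysis, numbered 5, of which 4 rose and Dnajc10 was not called. Dnajc3, whose loss causes diabetes in mice and humans, stood at 431, 389, 447 and 418 CPM in WT and 654, 625, 675 and 701 CPM in Wfs1KO. It rose 1.58-fold (log2 fold change 0.66, SE 0.06, adjusted p = 1.40e-05). Dnajb9, which also binds the sensor IRE1, had the largest spread relative to its level among the genes of this class that rose, and stood at 328, 242, 275 and 268 CPM in WT and 433, 428, 551 and 496 CPM in Wfs1KO. The groups did not overlap, and its log2 fold change was 0.78 (SE 0.10, adjusted p = 2.73e-04). Dnajb11, a soluble J-domain protein that binds unfolded clients directly, rose from 90.6, 77.3, 95.3 and 87.1 CPM in WT to 132, 120, 136 and 127 CPM in Wfs1KO (log2 fold change 0.56, adjusted p = 7.36e-05). Dnajc1, a membrane J-domain protein, rose by 0.25 on the log2 scale (adjusted p = 0.00918). Its log2 fold change was 0.18 in replicates 1 and 2 alone (adjusted p = 0.112) and 0.29 in replicates 3 and 4 alone (adjusted p = 0.0535), neither past the threshold. Dnajc10, a J-domain reductase that also serves ER-associated degradation, was the gene of the class that was not called. Its log2 fold change was 0.17 (95% interval 0.02 to 0.31, adjusted p = 0.114), which passed the threshold with replicates 1 and 2 against 3 and 4 as a block (adjusted p = 0.0417) and with total-count scaling (0.00859).

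Both exchange factors, which release ADP from BiP, rose. Hyou1, a large HSP70 relative, stood at 612, 590, 696 and 651 CPM in WT and 952, 843, 1064 and 872 CPM in Wfs1KO (log2 fold change 0.55, SE 0.08, adjusted p = 4.38e-04). Sil1, whose loss causes Marinesco-Sjögren syndrome, stood at 67.3, 62.3, 67.7 and 67.8 CPM in WT and 84.4, 85.4, 83.4 and 78.4 CPM in Wfs1KO. Its log2 fold change was 0.32 (SE 0.05, adjusted p = 7.20e-04).

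**Figure D2:**
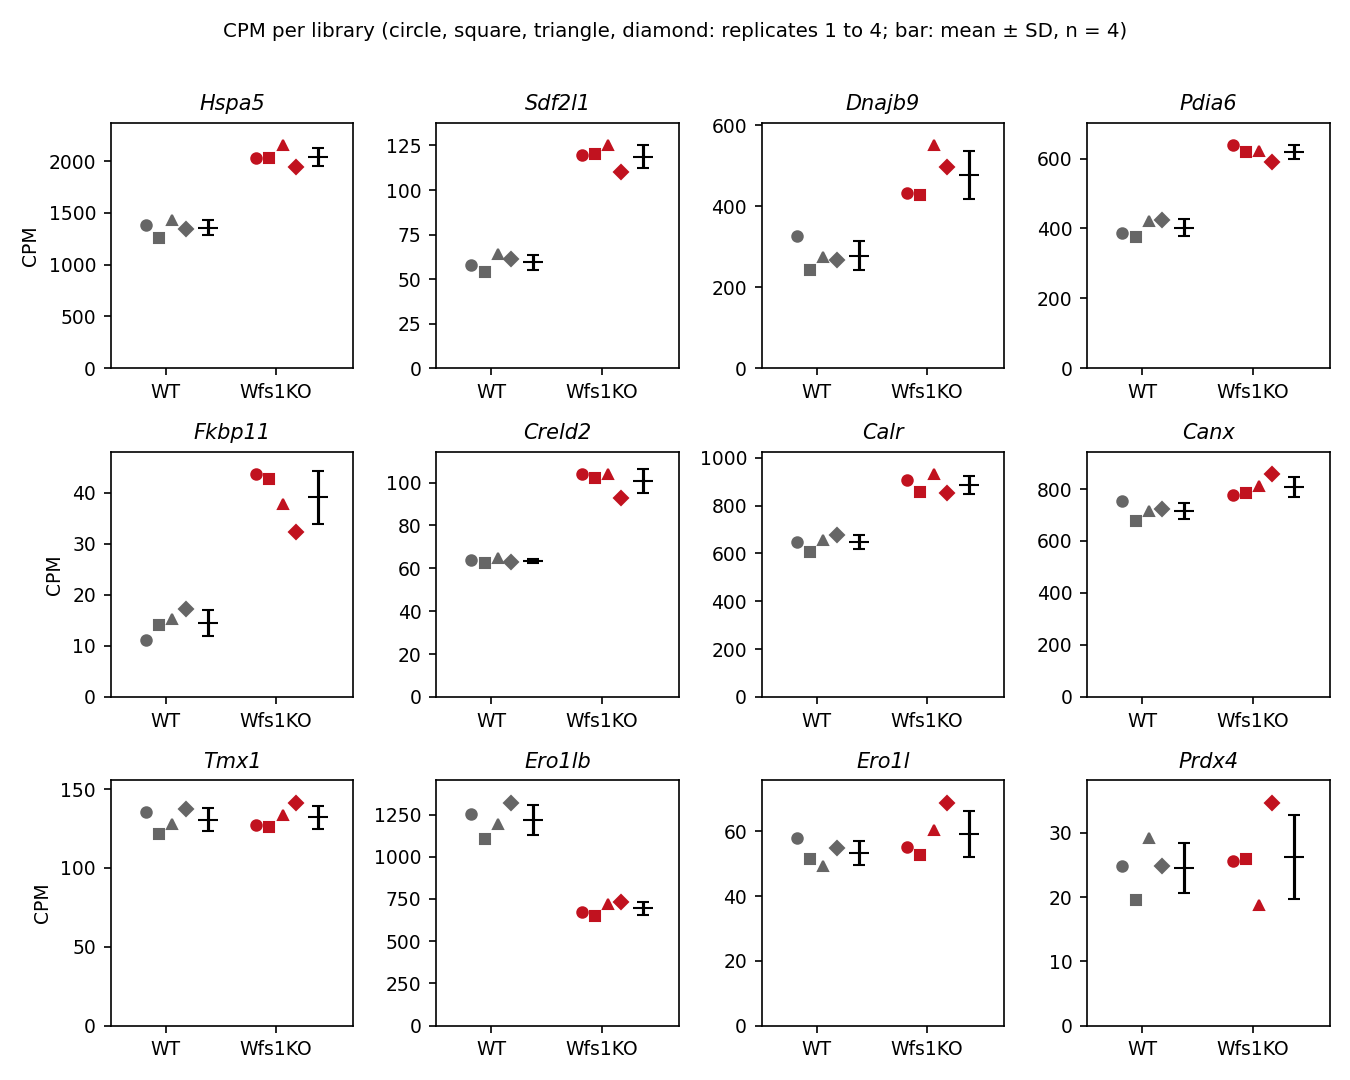
CPM (y axis, from 0) in each WT library (grey) and each Wfs1KO library (red) for 12 genes, with the replicate shown by the symbol and the mean ± SD by the bar (n = 4). Hspa5, Sdf2l1, Dnajb9, Pdia6, Fkbp11, Creld2 and Calr are higher in all 4 Wfs1KO libraries, Ero1lb is lower in all 4, and Tmx1, Ero1l and Prdx4 overlap between genotypes.

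The lectin class divided between the soluble and the membrane-bound chaperone. Calreticulin (Calr), the soluble lectin and a main calcium store of the ER lumen, was at 650, 606, 657 and 678 CPM in WT and 905, 856, 932 and 854 CPM in Wfs1KO. It rose 1.37-fold (log2 fold change 0.45, SE 0.06, adjusted p = 2.40e-04). Calnexin (Canx), its membrane-bound counterpart, was at 753, 677, 715 and 722 CPM in WT and 777, 785, 811 and 858 CPM in Wfs1KO. Every Wfs1KO library was above every WT library, yet the log2 fold change of 0.17 (95% interval 0.04 to 0.31) did not pass the threshold (edgeR adjusted p = 0.0737). DESeq2 called it (adjusted p = 0.0214), as did total-count scaling (0.00375), and the authors' deposited table gives a log2 fold change of 0.16 with an adjusted p of 0.0199.

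The glucosyltransferases return misfolded glycoproteins to the lectins by adding a glucose. Uggt1, the main enzyme, was at 433, 411, 426 and 435 CPM in WT and 555, 527, 558 and 570 CPM in Wfs1KO, and rose 1.30-fold (log2 fold change 0.37, SE 0.06, adjusted p = 3.67e-04). Uggt2, its weakly expressed paralog, was at 45.1, 48.2, 44.8 and 42.7 CPM in WT and 51.0, 47.7, 50.5 and 53.2 CPM in Wfs1KO. The groups overlapped by 1 library, and the log2 fold change of 0.16 (95% interval 0.04 to 0.29) was not called (adjusted p = 0.0616). It passed the threshold without WT replicate 2 (adjusted p = 0.0344), without Wfs1KO replicate 2 (0.0467) and with total-count scaling.

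Of the 14 protein disulfide isomerases and thioredoxin-domain proteins 9 rose, 0 fell and 5 were not called, with a median log2 fold change of 0.40. P4hb, Pdia3, Pdia4, Pdia5 and Pdia6, the enzymes of the family with PDI in their names or symbols, rose. P4hb, the founding protein disulfide isomerase and the most abundant of the class per transcript length, was at 893, 788, 953 and 916 CPM in WT and 1335, 1281, 1298 and 1354 CPM in Wfs1KO. It rose 1.48-fold (log2 fold change 0.57, SE 0.07, adjusted p = 1.00e-04). Pdia6, which acts on disulfide bonds of BiP clients and on the sensor IRE1, was at 388, 376, 423 and 423 CPM in WT and 638, 620, 621 and 590 CPM in Wfs1KO. It had the highest fold change of the class, 1.53 (log2 fold change 0.62, SE 0.06, adjusted p = 1.62e-05). Pdia4, a larger isomerase, was at 190, 173, 189 and 185 CPM in WT and 267, 255, 285 and 264 CPM in Wfs1KO (log2 fold change 0.54, SE 0.06, adjusted p = 2.13e-05). Erp44, which retains ERO1 oxidases in the early secretory pathway, was at 122, 117, 118 and 115 CPM in WT and 167, 158, 170 and 163 CPM in Wfs1KO. Its libraries were close together within each genotype, and it rose 1.39-fold (log2 fold change 0.48, SE 0.05, adjusted p = 1.76e-05). Txndc5, another soluble isomerase, was at 182, 172, 191 and 191 CPM in WT and 280, 249, 286 and 260 CPM in Wfs1KO, and rose 1.46-fold (log2 fold change 0.55, SE 0.06, adjusted p = 3.90e-05).

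The other 4 that rose were Erp29, a PDI-like protein without an active-site cysteine pair (log2 fold change 0.48, adjusted p = 2.24e-04), Pdia3, the isomerase that works with the lectins (0.42, adjusted p = 6.62e-04), Pdia5 (0.39, adjusted p = 0.00101) and Txndc11 (0.32, adjusted p = 0.00808). Exons of Erp29 overlap Naa25 and Tmem116 on the opposite strand, and the counting had no strand setting. The 5 that were not called were Tmx1, Tmx2, Tmx3 and Tmx4, the thioredoxin-related transmembrane proteins, and Txndc12. Tmx1, which acts mostly on membrane proteins, was at 136, 122, 128 and 137 CPM in WT and 127, 126, 133 and 141 CPM in Wfs1KO. The groups overlapped throughout, and the 95% interval of its log2 fold change, -0.11 to 0.14, lay below the log2 fold changes of all 9 genes of the class that rose. Tmx2 (0.08), Tmx3 (-0.12) and Tmx4 (-0.05) had adjusted p of 0.405, 0.184 and 0.719, and Txndc12, a small soluble thioredoxin protein, had a log2 fold change of 0.13 (adjusted p = 0.176).

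The oxidase class held the gene that fell. Ero1lb, the ERO1 paralog that is enriched in pancreas and oxidises disulfide isomerases for proinsulin folding, lies on chromosome 13 (12565883 to 12609528, plus strand, GRCm38). It was at 1250, 1107, 1197 and 1320 CPM in WT and 675, 652, 719 and 731 CPM in Wfs1KO. The highest Wfs1KO library was far below the lowest WT library, and the level fell to 0.570 of WT (log2 fold change -0.81, 95% interval -0.97 to -0.66, adjusted p = 6.53e-06). The beta cell markers fell in the same libraries (8 of 10, median -0.65), and the part of that shift in the result for Ero1lb was not tested. Its paralog Ero1l, the widely expressed form, was at 57.8, 51.3, 49.4 and 54.8 CPM in WT and 55.3, 52.6, 60.2 and 68.8 CPM in Wfs1KO. The groups overlapped, and its log2 fold change of 0.15 (95% interval -0.03 to 0.33) had an adjusted p of 0.243. It was -0.04 within replicates 1 and 2 alone and 0.30 within replicates 3 and 4 alone, where it passed the threshold (adjusted p = 0.0433).

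Qsox1, a sulfhydryl oxidase of the Golgi and of secretions, was at 114, 103, 111 and 120 CPM in WT and 119, 119, 124 and 129 CPM in Wfs1KO (log2 fold change 0.13, adjusted p = 0.135). Prdx4, the ER peroxiredoxin that turns hydrogen peroxide into disulfides, was at 24.8, 19.6, 29.1 and 24.8 CPM in WT and 25.6, 26.0, 18.7 and 34.7 CPM in Wfs1KO. Its 95% interval was the widest of the class, from -0.33 to 0.53 around a log2 fold change of 0.10 (adjusted p = 0.769). Its highest libraries, WT replicate 3 and Wfs1KO replicate 4, were those with the highest summed acinar markers in their genotype, and its lowest Wfs1KO library, replicate 3, had the lowest. With the summed acinar markers as a covariate the log2 fold change of Prdx4 was 0.28 (adjusted p = 0.0270). Of 19 alternative settings for Prdx4 this was the only 1 that passed the threshold, and the sign reversed in 2. The cause of this pattern was not tested. Of the 4 genes of this class, 1 had an unadjusted p under 0.05 on the higher side and 1 on the lower side, and DESeq2 called 0 higher and 1 lower. Over all 15733 tested genes, 2677 had an unadjusted p under 0.05 on the higher and 2216 on the lower side.

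Of the 5 prolyl isomerases, which speed the turning of proline bonds during folding, 3 rose and 2 were not called. Fkbp11, a membrane-anchored isomerase of secretory tissues on chromosome 15 (98724368 to 98728198, minus strand, GRCm38), had the highest fold change of all 41 genes. It was at 11.1, 14.1, 15.2 and 17.2 CPM in WT and 43.7, 42.6, 37.7 and 32.4 CPM in Wfs1KO. The groups were far apart, and Fkbp11 rose 2.72-fold (log2 fold change 1.44, SE 0.13, adjusted p = 3.61e-05). Fkbp2, a small luminal isomerase and the most abundant of the class per transcript length, was at 61.9, 67.1, 61.1 and 69.6 CPM in WT and 90.1, 109, 85.0 and 82.7 CPM in Wfs1KO (log2 fold change 0.50, SE 0.08, adjusted p = 0.00106). Ppib, the ER cyclophilin, was at 74.5, 67.5, 86.8 and 70.5 CPM in WT and 89.8, 86.7, 87.5 and 92.5 CPM in Wfs1KO. WT replicate 3 reached the level of the Wfs1KO libraries, so the groups overlapped, although the log2 fold change of 0.25 (SE 0.07) passed the threshold (adjusted p = 0.0223). Leaving out any of 4 libraries put Ppib past 0.05, with an adjusted p of 0.0566 without WT replicate 1, 0.0593 without WT replicate 2, 0.0667 without WT replicate 4 and 0.0598 without Wfs1KO replicate 4, and it was 0.245 within replicates 3 and 4 alone. Exons of Ppib also overlap those of Snx22 on the opposite strand. Fkbp7 (log2 fold change 0.17, adjusted p = 0.633) was the least abundant of the 41 genes, with a mean of 2.13 CPM in WT and 2.39 CPM in Wfs1KO. Fkbp14 had a log2 fold change of 0.13 (adjusted p = 0.351).

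Creld2, a secreted disulfide-rich protein made under ER stress, had a narrow spread in WT. It was at 63.8, 62.5, 64.6 and 62.9 CPM in WT and 104, 102, 104 and 92.6 CPM in Wfs1KO, and rose 1.59-fold (log2 fold change 0.67, SE 0.05, adjusted p = 2.42e-06). Its membrane-bound paralog Creld1, which is known for roles in heart development, was at 29.1, 31.6, 30.3 and 30.2 CPM in WT and 33.1, 28.6, 34.4 and 29.5 CPM in Wfs1KO. These groups overlapped, with a log2 fold change of 0.05 (95% interval -0.10 to 0.20, adjusted p = 0.672). Cnpy2, a canopy protein of the ER linked to the sensor PERK, was at 81.9, 77.2, 83.0 and 81.4 CPM in WT and 108, 117, 101 and 100 CPM in Wfs1KO, and rose 1.32-fold (log2 fold change 0.40, SE 0.06, adjusted p = 3.37e-04).

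The make-up of the folding machinery at the RNA level was compared as CPM per kb of transcript, a scale on which genes can be set against each other. Hspa5 led in both genotypes, with 520 CPM per kb in WT and 782 in Wfs1KO, followed by Hsp90b1 (455 and 607), P4hb (352 and 522), Pdia3 (349 and 465) and Calr (335 and 459). Ero1lb ranked next in WT with 289 CPM per kb and stood at 164 in Wfs1KO, below Canx (168 and 189) and Pdia6 (191 and 293). Of the summed level per kb, the HSP70 and HSP90 class held 38.6% in WT and 42.3% in Wfs1KO, and the disulfide isomerases held 31.6% and 32.3%. The share of the oxidases was 8.43% ± 0.324 (SD) over the 4 WT libraries and 4.21% ± 0.295 over the 4 Wfs1KO libraries. Ero1lb alone went from 6.77% to 2.87% of the total, while Ero1l stood at 12.1 and 13.5 CPM per kb. The lectin class held 13.1% and 12.5%, the prolyl isomerases 4.91% and 5.25%, and the CRELD and canopy proteins 3.34% and 3.41%. These shares are descriptions without a test.

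**Figure D3:**
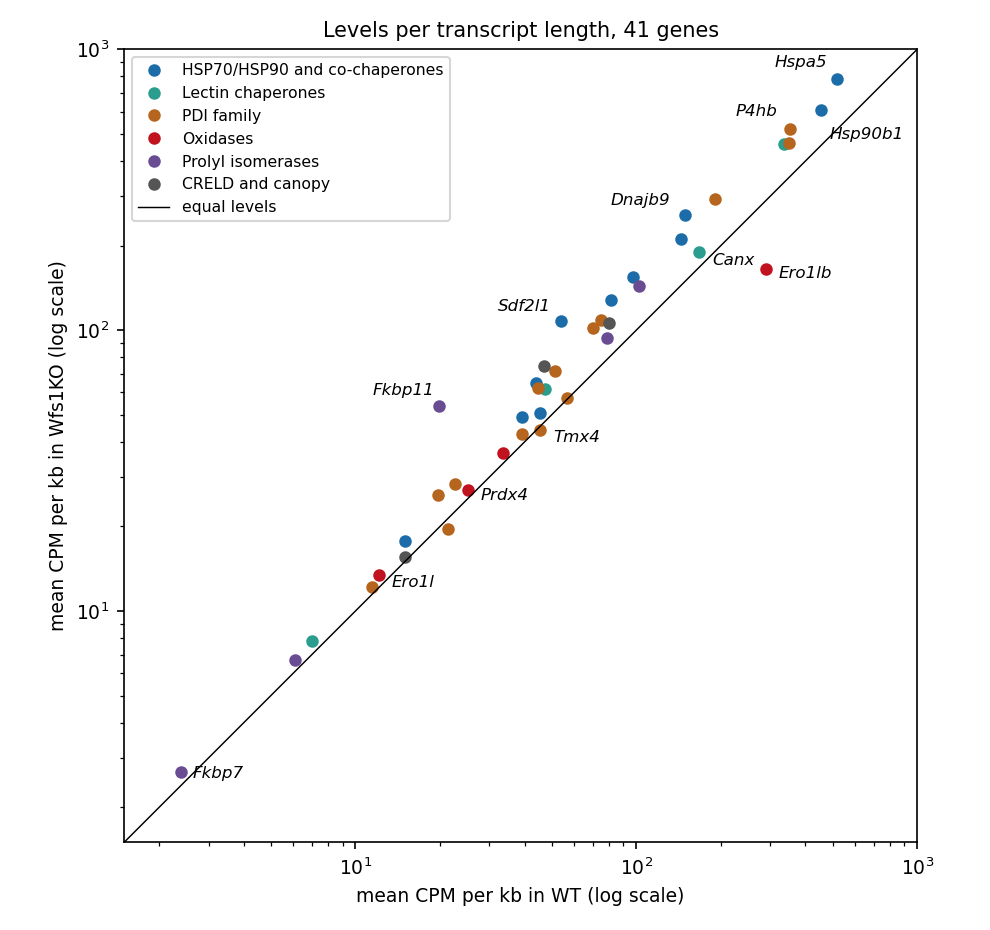
Mean level of each of the 41 genes in WT (x axis) against Wfs1KO (y axis), in CPM per kb of transcript on log scales, coloured by class, with the line of equal levels. Ero1lb lies far below the line at 289 in WT and 164 in Wfs1KO, and Fkbp11 lies farthest above it at 19.8 and 53.7.

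Within each library, 6 pairs of genes with related roles were set against each other as the log2 ratio of counts per kb, which does not depend on scaling between libraries. An exact two-sided permutation test over 4 and 4 libraries cannot give a p below 0.0286. The ratio of Ero1l to Ero1lb was -4.49, -4.49, -4.66 and -4.65 in WT and -3.67, -3.69, -3.64 and -3.47 in Wfs1KO. The genotypes were far apart, and the ratio was 0.96 higher on the log2 scale in Wfs1KO, or 1.94-fold (exact permutation p = 0.0286, adjusted over the 6 pairs 0.0343). Ero1lb nevertheless had the higher level of the pair in every library. The ratio of Creld2 to Creld1 averaged 1.65 ± 0.06 over WT and 2.26 ± 0.10 over Wfs1KO libraries (± SD of 4, difference 0.62), with the same exact permutation p of 0.0286 and adjusted p of 0.0343.

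Smaller differences were found for 3 further pairs, each without overlap and with an exact permutation p of 0.0286 (adjusted 0.0343). Calreticulin gained on calnexin, with a log2 ratio of 1.0 ± 0.05 in WT and 1.28 ± 0.10 in Wfs1KO (difference 0.28). Uggt1 gained on Uggt2 (2.77 ± 0.11 and 2.97 ± 0.02, difference 0.21). BiP gained on GRP94, since the ratio of Hspa5 to Hsp90b1 was 0.19 ± 0.05 in WT and 0.36 ± 0.06 in Wfs1KO (difference 0.17). The ratio of the exchange factors Hyou1 and Sil1, 1.88 ± 0.07 in WT and 2.10 ± 0.15 in Wfs1KO, overlapped between genotypes and did not pass the threshold (difference 0.22, exact permutation p = 0.0571, adjusted 0.0571).

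**Figure D4:**
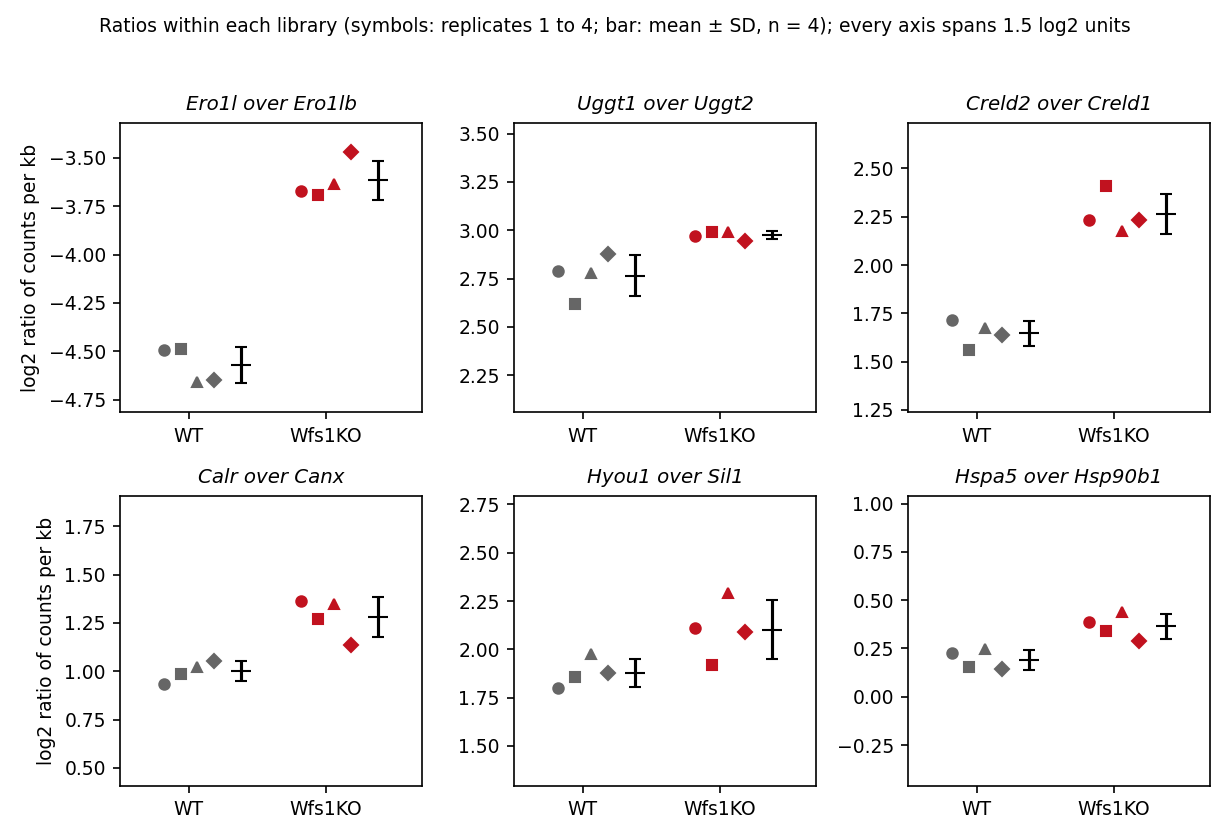
Log2 ratio of counts per kb within each library (y axis, every panel spanning 1.5 log2 units) for 6 pairs of genes in WT (grey) and Wfs1KO (red), with the replicate shown by the symbol and the mean ± SD by the bar (n = 4). The ratio of Ero1l to Ero1lb shows the widest gap, 0.96, and only the ratio of Hyou1 to Sil1 overlaps between genotypes.

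The spread between libraries of one genotype was small in these genes. The median coefficient of variation between libraries was 6.12% in WT and 5.39% in Wfs1KO over the 41 genes, and 8.62% and 8.36% over all tested genes, many of which have lower counts. WT replicate 2 was the lowest WT library in 29 of the 41 genes and had the lowest share of reads in exons, 60.0% where the 8 libraries ranged up to 76.5%. Wfs1KO replicate 2, with an exon share of 66.9%, was the lowest of its genotype in 21 genes, and Wfs1KO replicate 4 (76.2%) in 12. Wfs1KO replicate 1 had the lowest exon share of its genotype, 62.2%, and was the lowest in 5 genes. Wfs1KO replicate 3 was the highest in 17. The part of the exon share in these orders was not tested.

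Genes of the neighbouring ER pathways were counted from lists drawn up by role. Of 12 sensors, transcription factors and proteases of the unfolded protein response 5 rose and 0 fell (median log2 fold change 0.28). They included Atf6, whose product drives chaperone genes (0.31, adjusted p = 0.00388), and Creb3l1, a related membrane-bound factor (0.46, adjusted p = 0.00151). Xbp1, measured for all its splice forms together, was not called (0.10, adjusted p = 0.318). Of 18 genes of ER-associated degradation, which removes proteins that fail to fold, 13 rose and 0 fell (median 0.33). Derl3, a derlin of the retrotranslocation channel, rose by 1.76 (adjusted p = 1.31e-08), more than any of the 41 folding genes, and Selenos by 0.63 (adjusted p = 6.55e-06). Of 15 genes of ER translocation and signal peptidase 12 rose and 0 fell (median 0.44), with the smallest adjusted p for Sec11c, a catalytic signal peptidase subunit (0.64, adjusted p = 3.58e-06), and Ssr4, a translocon-associated protein (0.67, adjusted p = 7.47e-06).

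Collagen-directed, cytosolic and mitochondrial chaperones were counted in the same way. Of 8 tested collagen-directed ER chaperones and hydroxylases 4 rose and 1 fell (median 0.34), beside the stellate cell markers given before. The collagen chaperone Serpinh1 rose by 0.49 (adjusted p = 1.50e-04) and the prolyl 3-hydroxylase P3h1 by 0.56 (adjusted p = 3.15e-04), while the prolyl isomerase Fkbp9 had a log2 fold change of -0.28 (adjusted p = 0.00359). Of 26 cytosolic chaperones 0 rose and 1 fell in the edgeR fit (median 0.05), which was the cyclophilin Ppid (-0.21, adjusted p = 0.0374). At an unadjusted p under 0.05, 4 of them were higher and 4 lower, and DESeq2 called 0 higher and 3 lower. Among all 15733 tested genes 4893 had an unadjusted p under 0.05, 2677 of them higher and 2216 lower. DESeq2 called 1556 genes higher and 1436 lower. Of 10 mitochondrial chaperones 3 rose and 0 fell (median 0.13), among them the mitochondrial HSP70 Hspa9 (0.39, adjusted p = 0.00208) and the protease subunit Clpp (0.23, adjusted p = 0.0205). Whether the 41 folding genes differ from these lists was not tested.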

How the data were processed

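Raw exon counts per gene were deposited by the authors in one table for all 8 libraries (HOMER 4.11.1, mm10, per the file headers); STAR 2.6.0a, bcl2fastq and DESeq2 are named in the submitters' processing notes, the last without version. A second deposited table gives the authors' log2 fold changes and adjusted p-values. The file headers show no strand setting, so 15 of the 41 genes whose exons overlap another gene on the opposite strand may hold its reads. Overlaps were taken over all GENCODE exons of a gene and summed over the opposite genes. They can therefore exceed the counted transcript, which has 1238 bases in Erp29. The overlap was longest in Erp29 (2390 bases), Ppib (825), Dnajc1 (749), Txndc5 (535), Hsp90b1 (415) and Manf (312). How much of it lies in the counted exons was not tested. Here, genes were filtered with edgeR's filterByExpr (minimum count 10, total 15), which left 15733 and all 41 members, scaled by TMM and tested with the robust quasi-likelihood F-test (edgeR 4.0.16, limma 3.58.1, R 4.3.3). P-values were adjusted by Benjamini-Hochberg over all tested genes and called under 0.05. CPM use TMM-scaled library sizes, and shares of counts use exon totals. Intervals cover 95%. The common biological coefficient of variation was 10.7%.

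Each library's values are given for up to 4 called genes of smallest adjusted p per class, the most abundant, those that fell and both genes of each ratio pair. From each other pathway list up to 2 called genes of smallest adjusted p per direction are named with their log2 fold change. Dnajb9, Dnajb11, Tmx1, Qsox1, Prdx4, Pdia2 and Xbp1 fall outside that rule and were chosen after their values were seen. The members and lists were chosen with earlier results of these data known. Ratios used a pseudocount of 0.5 counts and an exact permutation test. The pathway and marker lists not named above changed as follows: of 8 alpha cell markers 1 rose and 1 fell, of 5 delta and PP cell markers 3 rose, of 7 duct markers 1 rose and 1 fell, and of 8 macrophage markers none was called by edgeR or DESeq2, with 0 at an unadjusted p under 0.05; of 7 tested B and plasma cell markers 0 were called by either tool and 1 was lower at that p. Same-numbered libraries deviated together from their genotype means (correlations 0.153, 0.443, 0.269 and 0.188 over 15733 genes), so replicate number was tried as a block; the labels do not say what the number marks. Alternatives included DESeq2 1.42.0, other scaling, filters and covariates, and each library left out. The procedure was tested on simulated data.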

Additional observations from a re-analysis of the deposited data

Results flagged for a closer look

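In 94 groups of 4 libraries, one for each of the 41 genes and 6 ratios in each genotype, the gap between the most extreme library and its nearest neighbour was set against the range of the group, a rule that chance meets in about 1 in 20 groups. It was met in 2 of the 94 groups, which is below that rate, both by WT replicate 2. Sil1 stood at 62.3 CPM in that library, while the other WT libraries lay between 67.3 and 67.8 CPM. Pdia3 stood at 835 CPM in it, while the other WT libraries lay between 936 and 950 CPM. Without WT replicate 2 both genes were still called higher in Wfs1KO.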

How the results depend on the processing

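Under DESeq2, other scaling, other filters, the acinar covariate, both blocks and the replicate subsets, between 25 and 32 of the 41 genes rose and 1 fell. The count of 32 came from total-count scaling, and all other alternatives gave 25 to 27. Leaving out each library in turn gave 25 to 27 rising genes, 1 falling gene, and 2387 to 2734 called genes among all tested. Among all tested genes, replicates 3 and 4 alone gave 1846 called genes and replicates 1 and 2 alone, also 2 libraries per genotype, gave 2939. With the replicate block 26 genes rose, 1 fell and 2932 of all tested genes were called, and no call among the 41 genes changed. Paired by replicate number, the 6 ratio differences, which are the same by arithmetic (0.96 for Ero1l to Ero1lb), had an exact sign-flip p of 0.125, the smallest that 4 pairs allow, so this test could not pass the threshold.

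The log2 fold changes that changed sign all belonged to genes that were not called. Tmx1 was -0.0070 without the 20 most abundant genes, -0.045 in replicates 1 and 2 alone, -0.017 without WT replicate 2 and -0.029 without Wfs1KO replicate 4, with a range of -0.029 to 0.041 when each library was left out. Tmx4 was 0.054 with total-count scaling, and Ero1l was -0.037 in replicates 1 and 2 alone. Prdx4 was -0.0085 in replicates 3 and 4 alone and -0.068 without Wfs1KO replicate 4 (range with each library left out -0.068 to 0.218), and Creld1 was -0.0037 without Wfs1KO replicate 3 (range -0.0037 to 0.094). The cause was not tested. For Fkbp7, at about 2 CPM, depth limits the precision.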
